A study of Mus musculus with 8 samples.

Results

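The metabotropic glutamate receptor genes described here are Grm2, Grm3, Grm4, Grm5, Grm7 and Grm8. They were taken by gene symbol from the deposited expression table, in which they are 6 of 24883 rows, and all 6 passed the filter on low values that left 13912 rows for testing. The tissue was visual cortex of adult C57BL/6J mice that received a locked nucleic acid (LNA) oligonucleotide by intracortical injection at postnatal day 122, and RNA was sequenced from tissue of postnatal day 129. The 4 controls received a scrambled oligonucleotide. The 4 treated samples, called anti-miR-29a here, received one directed against the microRNA miR-29a, which such an oligonucleotide binds and blocks. All mice were thus injected, and the untreated cortex was not analysed here. Since no label ties a sample to its own animal, the p-values cover only the scatter among the 8 samples, part of which may be technical.

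Metabotropic glutamate receptors are G protein-coupled receptors that sense glutamate at synapses and on glia and act more slowly than the ion channel receptors. Group I receptors, here Grm5, couple to Gq, phospholipase C and calcium release, sit mainly on the postsynaptic side and are known for driving synaptic depression in cortex. Group II receptors (Grm2 and Grm3) and group III receptors (Grm4, Grm7 and Grm8) couple to Gi/o, lower cyclic AMP and mostly restrain transmitter release, while Grm3 is also abundant in astrocytes.

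The microRNA that the oligonucleotide targets pairs with messages through its seed, bases 2 to 8, which its relatives miR-29b and miR-29c carry as well. The mature sequences (RefSeq, GRCm38.p6) are printed to show that shared seed, in capitals.
miR-29a-3p: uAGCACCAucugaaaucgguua
miR-29b-3p: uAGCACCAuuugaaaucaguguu
miR-29c-3p: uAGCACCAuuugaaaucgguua
A match to the seed is TGGTGCT on the message. In the longest annotated 3' UTR (GENCODE M21, the assembly of mm10, message strand searched), 1 of the 6 receptor genes held it, compared with 15.8% of 13108 tested genes that have an annotated 3' UTR. That gene was Grm4, whose 3' UTR of 885 nt holds 1 match, followed by a base other than A, in an exon on the minus strand of chromosome 17. Among tested genes with 3' UTRs of at least 600 and under 1200 nt, 9.51% held a match. The site is shown with its neighbours because it is the one seed match in the family members described, with the match in capitals.
Grm4 site, chr17:27426651-27426657, minus strand (mm10): acgaatgtggctTGGTGCTgaggacagtag
No match to these letters was found in the longest annotated 3' UTRs of Grm5 (4038 nt), Grm2 (1901 nt), Grm7 (1163 nt), Grm8 (581 nt) or Grm3 (227 nt), nor in any other annotated 3' UTR of these genes. A match is a description of the sequence and not a measured site of binding.

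The values are FPKM, fragments counted per length of transcript and scaled to the sequencing depth of the sample, so levels of different genes can be compared. Each sample listed 12538 to 12769 rows at 1 FPKM or more, and the spacing of low values gave a rough relative depth of 0.982 to 1.17 of scrambled replicate 1, from at most 36.3% of those values, while read totals are unknown. Markers of cortical excitatory neurons and interneurons were present in all samples, and Slc17a7, a vesicular glutamate transporter, averaged 606.9 FPKM. One sample stood apart in a way that touches a receptor gene. In scrambled replicate 3 all 15 genes of a list of cerebellar genes, drawn up after Grm4 was seen to be high there, had their highest value of the 8 samples, and their summed level was 158.1 FPKM against 23.5 to 29.4 FPKM in the other samples. Pcp2, a Purkinje cell gene, read 41.2 FPKM there and 0 to 0.843 FPKM elsewhere. Gabra6, a GABA receptor subunit gene of cerebellar granule cells, read 6.67 FPKM there and 0 to 0.170 FPKM elsewhere. The difference between groups is therefore given with and without that sample for each receptor gene.

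Grm2 had the highest level and Grm8 the lowest of the 6 genes. Over all 8 samples Grm2 averaged 27.1 FPKM, Grm3 15.1, Grm7 11.2, Grm5 10.4, Grm4 7.72 and Grm8 3.18. The lowest Grm2 value (20.4 FPKM) lay above the highest Grm3 value (18.9 FPKM), and the highest Grm8 value (4.10 FPKM) lay below the lowest Grm4 value (5.69 FPKM). Ranges of the other neighbours overlapped. The Grm4 mean includes 14.6 FPKM from scrambled replicate 3, and the other controls averaged 6.26 FPKM. Grm3 was above Grm7 in all 8 samples, Grm7 above Grm5 in 6 of 8 and Grm5 above Grm4 in 7 of 8, scrambled replicate 3 being the exception in the last pair.

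**Figure D1:**
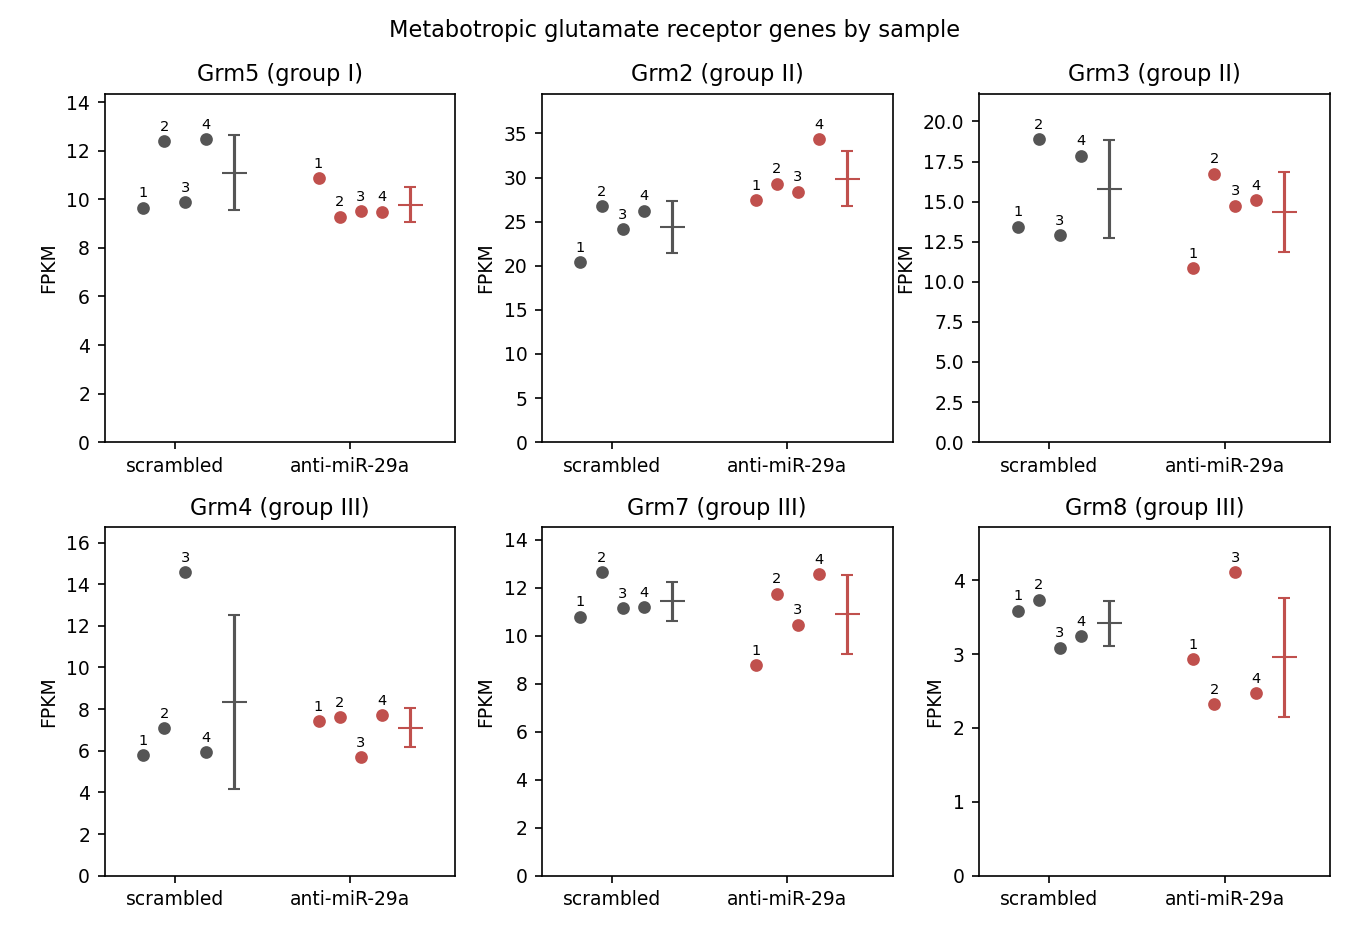
FPKM (vertical axes, from 0) of the 6 receptor genes in the scrambled (grey) and anti-miR-29a (red) samples, each point 1 sample labelled with its replicate number, bars the mean and SD of 4 samples. The groups are apart in Grm2, overlap in the other 5 genes, and scrambled replicate 3 stands at 14.6 FPKM in Grm4.

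Treated and control samples were compared to ask whether receptor transcripts differ when miR-29a is blocked. Grm2 was higher in every anti-miR-29a sample than in any scrambled one, by 1.23-fold on average, but did not pass the test over all genes. The other 5 receptor genes had lower means, at 0.853 to 0.952 of the control mean, and their groups overlapped. The 0.853 is that of Grm4, whose treated mean was the higher one without scrambled replicate 3 (7.11 against 6.26 FPKM). Of the 6 genes, 0 passed (limma, adjusted p under 0.05), where 0.0144% of tested rows did (0.00719% in each direction), and 1, Grm2, had an unadjusted p under 0.05 in the higher direction, as had 7.54% of tested rows. In the lower direction the members had 0 such values against 3.18% of tested rows. Scaling changes that background: it was 1049 rows higher and 443 lower as deposited, and 748 higher (5.38%) and 731 lower (5.25%) when each sample was centred on its median. It was 713 higher and 797 lower after quantile normalization, and 626 higher and 522 lower after a correction of each sample for transcript length and GC content. Without scrambled replicate 3, Grm2 was again the one member with an unadjusted p under 0.05, where 7.78% of tested rows were higher and 3.56% lower by that rule. The log2 difference was negative in 5 of 6 members against 43.4% of tested rows and positive in 1 against 56.6%, with a median of -0.13 against 0.026. Without scrambled replicate 3 it was negative in 4 of 6, with a median of -0.16 against 0.030. In bulk tissue, fewer cells that express a gene and less RNA per cell cannot be told apart.

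Group I was represented by Grm5, the postsynaptic receptor coupled to Gq, on the plus strand of chromosome 7 at 87584168 to 88134907. It read 9.66, 12.4, 9.88 and 12.5 FPKM in scrambled replicates 1 to 4 and 10.9, 9.28, 9.51 and 9.49 FPKM in anti-miR-29a replicates 1 to 4. Of the treated samples 3 lay below every scrambled one, while anti-miR-29a replicate 1 lay among them, and scrambled replicates 2 and 4 were the highest of all. The means were 11.1 ± 1.55 and 9.79 ± 0.727 FPKM (SD, n = 4 each). The log2 difference, anti-miR-29a minus scrambled, was -0.17 with a 95% interval of -0.41 to 0.064 (limma, adjusted p = 0.595; exact permutation p = 0.171, two-sided over 70 relabellings). Without scrambled replicate 3 the difference was -0.23 with an interval of -0.48 to 0.027. When each sample was corrected for the GC content and length of transcripts, it came to -0.095, a shift of over 1.5 times, and without scrambled replicate 4 it was -0.11. The longest Grm5 transcript, 8047 nt, is the one member above 6000 nt, a class in which the median log2 difference of 2008 tested rows was -0.060.

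The group II receptor genes had differences of opposite sign. Grm2, a presynaptic autoreceptor that restrains glutamate release, lies on the minus strand of chromosome 9 at 106643095 to 106656082. It read 20.4, 26.8, 24.1 and 26.3 FPKM in the scrambled and 27.4, 29.3, 28.4 and 34.4 FPKM in the anti-miR-29a samples. No treated sample overlapped the controls, although the lowest treated value, 27.4 FPKM, was close to the highest control value, 26.8 FPKM. Such separation in the higher direction was seen in 4.02% of tested rows and in the lower direction in 2.29%. The means were 24.4 ± 2.91 and 29.9 ± 3.09 FPKM (SD, n = 4 each). The log2 difference was 0.29 with a standard error of 0.10 and an interval of 0.072 to 0.52 (limma, adjusted p = 0.342). Its exact permutation p was 0.0286, and no smaller value exists with 70 relabellings. By unadjusted p Grm2 ranked 598 of 13912 tested rows. Leaving out scrambled replicate 3 gave a difference of 0.29, and removing the length and GC trend gave 0.26.

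Grm3, the group II receptor shared by neurons and astrocytes, lies on the minus strand of chromosome 5 at 9485541 to 9725170. It read 13.4, 18.9, 12.9 and 17.9 FPKM in the scrambled and 10.8, 16.7, 14.7 and 15.1 FPKM in the anti-miR-29a samples. Anti-miR-29a replicate 1 was the lowest of all 8 and the other treated samples lay within the control range. The log2 difference was -0.13 with an interval of -0.49 to 0.22 (limma, adjusted p = 0.796; exact permutation p = 0.543). It was -0.22 without scrambled replicate 3, -0.041 without scrambled replicate 2 and -0.0058 without anti-miR-29a replicate 1, so single samples set its size. Of 7 astrocyte genes 4 had a positive difference, as had 56.6% of tested rows, with a list median of 0.17. At an unadjusted p under 0.05, 2 were higher and 0 lower. The summed level of the 7 astrocyte genes was 572.8 to 748.0 FPKM in scrambled and 617.2 to 937.2 FPKM in anti-miR-29a samples. Within that sum Gfap read 109.4 to 248.4 FPKM in scrambled and 163.4 to 392.3 FPKM in anti-miR-29a samples. Slc1a3 read 110.3 to 128.0 FPKM and 105.3 to 129.7 FPKM, a log2 difference of -0.0040. The part of the astrocyte genes in the Grm3 value was not tested.

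Group III holds Grm4, Grm7 and Grm8, presynaptic receptors that restrain release of glutamate and GABA. Grm4, which is known for its high level in cerebellar granule cells, lies on the minus strand of chromosome 17 at 27422387 to 27521403. It read 5.77, 7.08, 14.6 and 5.92 FPKM in the scrambled and 7.42, 7.60, 5.69 and 7.72 FPKM in the anti-miR-29a samples. Scrambled replicate 3 stood far above all other samples, and it is the sample with the high cerebellar genes, whose part in the Grm4 value was not tested. With all samples the log2 difference was -0.13 with an interval of -0.71 to 0.46 (limma, adjusted p = 0.893; exact permutation p = 0.914). Without scrambled replicate 3 the direction turned: the scrambled mean was 6.26 ± 0.716 FPKM (SD, n = 3) against 7.11 ± 0.951 FPKM (SD, n = 4), a log2 difference of 0.18 with an interval of -0.13 to 0.48 (limma, adjusted p = 0.672, in a range of 0.672 to 1 over the alternatives; exact permutation p = 0.229). Then 3 of the 4 treated samples lay above all 3 remaining controls and anti-miR-29a replicate 3 lay below them. Grm4, the member with the seed match, thus passed in neither direction.

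**Figure D2:**
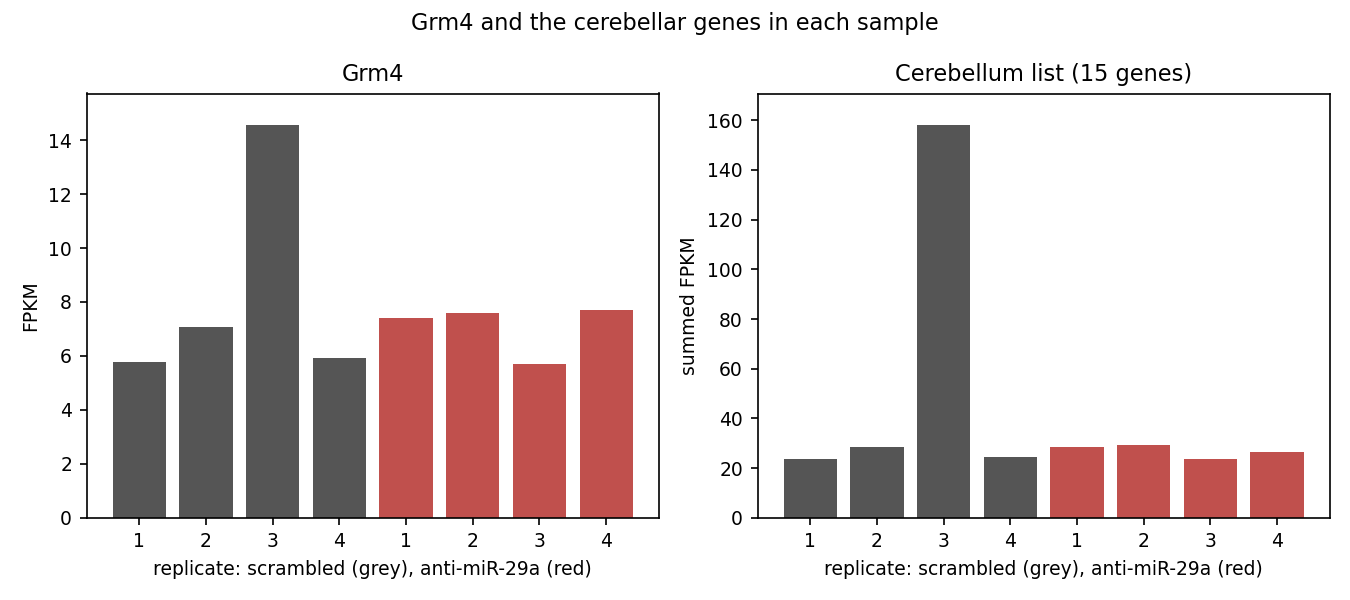
FPKM of Grm4 (left) and summed FPKM of the 15 cerebellar genes (right) in each sample, scrambled in grey and anti-miR-29a in red, with both axes from 0. Scrambled replicate 3 is the highest bar in both, at 14.6 and 158.1 FPKM.

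Grm7, a receptor of the presynaptic active zone, lies on the plus strand of chromosome 6 at 110645581 to 111567230. It read 10.8, 12.6, 11.2 and 11.2 FPKM in the scrambled and 8.78, 11.8, 10.5 and 12.6 FPKM in the anti-miR-29a samples. Anti-miR-29a replicate 1 was the lowest of the 8 and replicates 2 and 4 lay inside the control range. The log2 difference was -0.081 with an interval of -0.33 to 0.17 (limma, adjusted p = 0.827; exact permutation p = 0.60). It was -0.093 without scrambled replicate 3. Without anti-miR-29a replicate 1 it was 0.017, so its sign rested on that sample. It was -0.15 without anti-miR-29a replicate 4 and -0.033 without scrambled replicate 2.

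Grm8, on the minus strand of chromosome 6 at 27275119 to 28135178, is a presynaptic group III receptor with a high affinity for glutamate. It read 3.59, 3.74, 3.08 and 3.24 FPKM in the scrambled and 2.93, 2.32, 4.10 and 2.47 FPKM in the anti-miR-29a samples. Of the treated samples 3 lay below every control, whereas anti-miR-29a replicate 3 was the highest of all 8. The log2 difference was -0.23 with an interval of -0.63 to 0.16 (limma, adjusted p = 0.675; exact permutation p = 0.286), and -0.28 without scrambled replicate 3. Without anti-miR-29a replicate 3 it was -0.40 (unadjusted p = 0.0194, limma adjusted p = 0.391, in a range of 0.391 to 0.969 over the alternatives), and without replicate 2 of that group -0.13, so its size varied over 1.5 times with single samples.

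**Figure D3:**
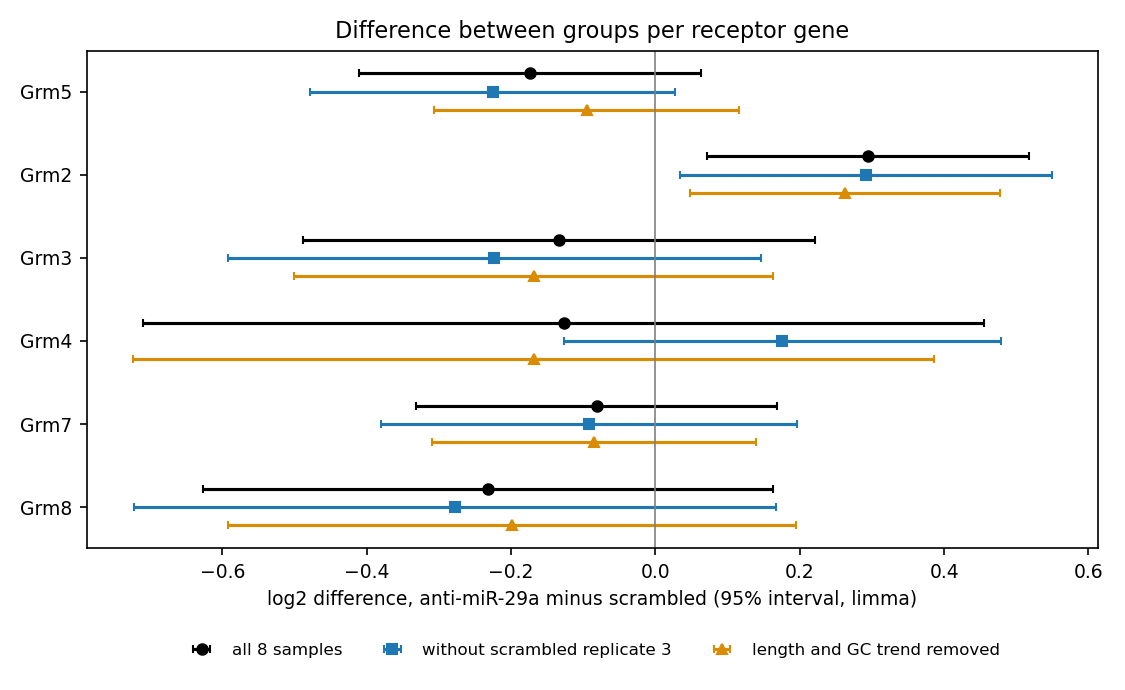
Log2 difference, anti-miR-29a minus scrambled, of each receptor gene with its 95% interval from limma, for all 8 samples (black circles), without scrambled replicate 3 (blue squares) and with the length and GC trend removed (orange triangles). The Grm2 interval of 0.072 to 0.52 lies above 0, and Grm4 moves from -0.13 to 0.18 without scrambled replicate 3.

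Within each sample the receptor genes can be set against each other, which takes out the scaling of the sample as a whole. The summed FPKM of the 6 genes was alike in range, 63.7 to 81.6 in scrambled and 68.3 to 81.7 in anti-miR-29a samples. Grm2 made up 32.0, 32.8, 31.9 and 34.1% of that sum in the scrambled and 40.2, 38.1, 38.9 and 42.1% in the anti-miR-29a samples. The groups did not overlap in share, but the share is built from the same Grm2 values and is not a separate result. Grm5 made up 13.0 to 16.2% (15.2 to 16.2% without scrambled replicate 3) and 11.6 to 15.9%. Grm4 made up 7.69 to 9.07% of the sum in scrambled replicates 1, 2 and 4 and 19.2% in replicate 3, against 7.81 to 10.9% in anti-miR-29a samples. The ratio of Grm2 to Grm5 was 2.10 to 2.44 in scrambled (2.10 to 2.16 without replicate 3) and 2.53 to 3.62 in anti-miR-29a samples, without overlap. The ratio of the group II receptors, Grm2 to Grm3, was 1.42 to 1.87 and 1.75 to 2.53, with scrambled replicate 3 the one control inside the treated range; the other controls reached 1.52. These ratios were formed after the values were seen and are given as a description.

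**Figure D4:**
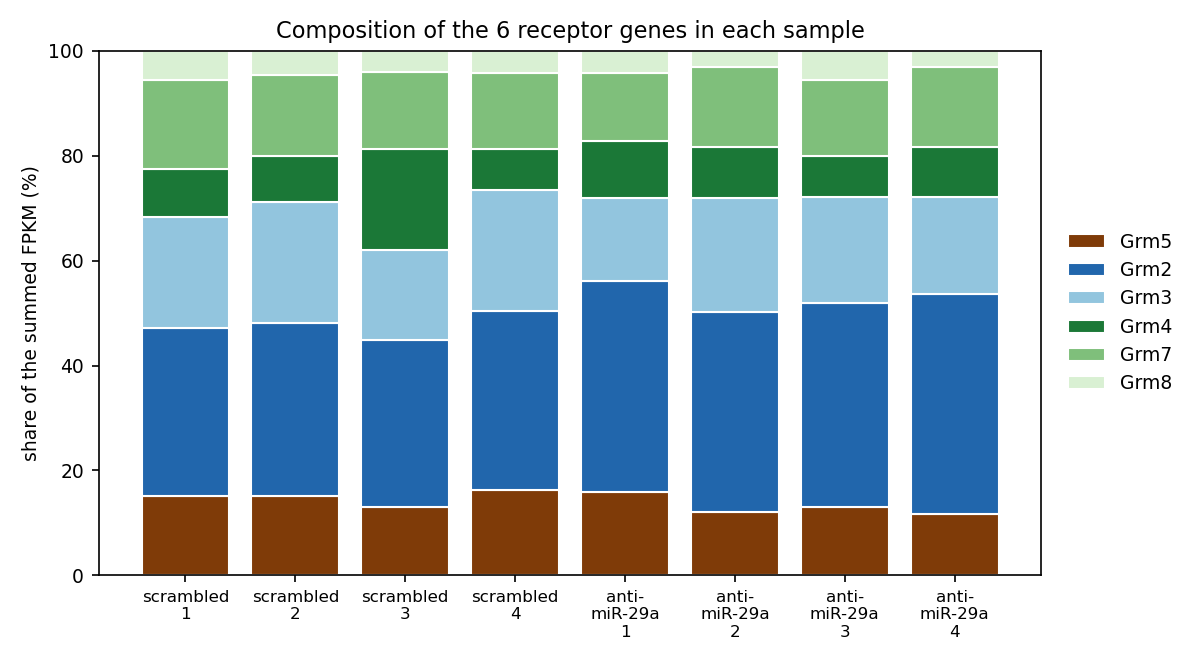
Share of each receptor gene in the summed FPKM of the 6 genes (vertical axis, percent), 1 bar per sample. Grm2 takes 31.9 to 34.1% in scrambled and 38.1 to 42.1% in anti-miR-29a samples, and Grm4 takes 19.2% in scrambled replicate 3.

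Markers of several cell types, whether or not they carry these receptors, were examined beside the receptor results. Of tested rows 56.6% had a positive and 43.4% a negative difference. At an unadjusted p under 0.05, 7.54% were higher and 3.18% lower. Excitatory neuron genes summed to 735.5 to 761.8 FPKM in scrambled and 709.4 to 768.9 FPKM in anti-miR-29a samples. Most of that sum was Slc17a7, with 588.8 to 623.4 FPKM and 576.9 to 632.7 FPKM, so it says little of the other genes. Of the 8 genes 3 were higher and 5 lower, with a median of -0.037. At an unadjusted p under 0.05 there were 0 higher and 1 lower. Interneuron genes, led by Sst and Npy, summed to 923.1 to 998.2 FPKM and 1029 to 1125 FPKM. Of these genes 4 of 8 were higher, with 2 higher and 0 lower at an unadjusted p under 0.05. The interneuron list median was 0.038, or -0.0019 with the length and GC trend removed, and single genes went both ways. Gad1 read 61.3 to 66.9 FPKM in scrambled and 58.4 to 61.1 FPKM in anti-miR-29a samples. Pvalb read 72.4 to 78.0 FPKM and 78.2 to 89.3 FPKM. Meningeal fibroblast genes had a positive difference in 5 of 5 tested members with a median of 0.61, 3 of them at an unadjusted p under 0.05. They summed to 317.9 to 495.9 and 463.9 to 707.1 FPKM, most of it Ptgds. Oligodendrocyte genes had a negative difference in 6 of 6 members with a median of -0.15, and 0 had an unadjusted p under 0.05. They summed to 803.4 to 1644 FPKM in scrambled and 895.4 to 1193 FPKM in anti-miR-29a samples. The part of these lists in the receptor differences was not tested. Choroid plexus genes were near 0, with 0.618 to 2.08 FPKM summed over 5 genes.

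Genes of the receptors' pathway were taken from 7 lists with 84 tested members, of which 0 passed over all genes (limma). At an unadjusted p under 0.05 there were 4 higher and 12 lower members, where 7.54% and 3.18% of tested rows were so. A positive difference was seen in 56.6% of tested rows and a negative one in 43.4%, with a median of 0.026. Groups did not overlap in 4.02% of tested rows in the higher direction and in 2.29% in the lower. The genes named below are those of smallest p in each list, which makes such separation more likely among them.

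In the Gq arm downstream of group I receptors 11 of 14 tested genes had a negative difference. Of these 4, and 0 of the higher ones, had an unadjusted p under 0.05. The list median was -0.096, or -0.15 without scrambled replicate 3 and -0.078 with the length and GC trend removed. The summed level of the list was 467.3 to 477.8 FPKM in scrambled and 421.5 to 437.9 FPKM in anti-miR-29a samples. That sum includes Itpr1, Prkcb and Gnaq, described next, and is not a separate result. Itpr1, the calcium release channel opened by inositol trisphosphate, read 43.1, 47.4, 48.8 and 47.0 FPKM in the scrambled and 36.6, 38.2, 36.8 and 38.0 FPKM in the anti-miR-29a samples. The groups did not overlap, with a log2 difference of -0.31 and a standard error of 0.053 (limma, adjusted p = 0.106; 0.0742 to 0.308 over its alternatives). Prkcb, a protein kinase C gene, differed by -0.18 and Gnaq, the Gq alpha subunit, by -0.21. Both were without overlap of the groups and did not pass (limma, adjusted p = 0.20 and 0.264). In this list 3 of 14 genes were without overlap in the lower direction and 0 in the higher. Trpc4, a cation channel gene opened downstream of phospholipase C, differed by -0.38 with overlap. Without scrambled replicate 3 the differences of Itpr1, Prkcb and Gnaq were -0.29, -0.20 and -0.19. With the length and GC trend removed they were -0.24, -0.24 and -0.18.

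The Gi/o arm of group II and III receptors had 8 of 17 genes higher, 9 lower and a median of -0.034, with 1 higher and 3 lower at an unadjusted p under 0.05. Adcy1, a calcium-stimulated adenylyl cyclase, read 59.1, 54.1, 54.9 and 60.5 FPKM in the scrambled and 45.5, 48.0, 45.9 and 48.9 FPKM in the anti-miR-29a samples. No treated sample reached the lowest control, and the log2 difference was -0.28 (limma, adjusted p = 0.164). Adcy5 and Gnai1, an inhibitory alpha subunit, differed by -0.20 and -0.17, while Gng3, a gamma subunit, differed by 0.15. The groups did not overlap in Gnai1 or Gng3. In this list 1 of 17 genes was without overlap in the higher direction and 3 in the lower. Removing the length and GC trend brought the Gng3 difference to 0.050 and the Adcy1 difference to -0.20.

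Scaffolds and synaptic partners were evenly divided, with 8 of 16 higher and a median of 0.0028, and had 1 higher and 1 lower at an unadjusted p under 0.05. Grasp, which encodes the scaffold tamalin that binds group I receptors, differed by 0.23 and Shank2, a postsynaptic scaffold, by -0.17, neither overlapping between groups nor passing (limma, adjusted p = 0.311 and 0.375). Grasp and Shank2 were the only genes of this list without overlap. The Grasp difference came to 0.13 after the correction for length and GC content. Homer1, which links Grm5 to the Itpr1 channel, differed by -0.16 with overlap, by -0.055 without scrambled replicate 2 and by -0.090 after the length and GC correction. Genes that end the signal had 6 of 10 higher and 0 at an unadjusted p under 0.05. Rgs14, a G protein deactivator, differed by 0.20, by 0.10 without scrambled replicate 1 and by 0.13 after that correction.

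Among genes of the protein synthesis dependent depression that group I receptors start, 5 of 11 were higher. At an unadjusted p under 0.05 there were 1 higher and 2 lower. Their summed level, which includes Arc, was 724.8 to 816.9 FPKM in scrambled and 817.2 to 884.5 FPKM in anti-miR-29a samples. Apart from this list and the Gq arm, the list sums overlapped between groups. Arc, an activity-induced gene that promotes removal of AMPA receptors, read 57.6, 127.3, 140.8 and 119.2 FPKM in the scrambled and 189.1, 230.2, 181.8 and 163.9 FPKM in the anti-miR-29a samples. Scrambled replicate 1 was the lowest and all treated samples lay above all controls, with a log2 difference of 0.85 (limma, adjusted p = 0.268) that came to 0.56 without that sample. Map1b, a microtubule protein made in this form of depression, differed by -0.26 (limma, adjusted p = 0.234) and by -0.17 after the length and GC correction. In this list 2 of 11 genes were without overlap in the higher direction, Arc and Ptpn5, and 0 in the lower. Ptpn5 differed by 0.092 (limma, adjusted p = 0.484) and by 0.032 after that correction.

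Genes for glutamate and NAAG, the dipeptide that activates Grm3, had 5 of 11 higher and a median of -0.0016, with 0 higher and 1 lower at an unadjusted p under 0.05. Rimkla, a NAAG synthetase gene, read 2.37, 2.23, 1.75 and 1.86 FPKM in the scrambled and 1.42, 1.58, 1.47 and 1.46 FPKM in the anti-miR-29a samples, so the groups did not overlap. Its log2 difference was -0.44 (limma, adjusted p = 0.376), and it was the only gene of this list without overlap. The other class C receptor genes examined had 2 of 5 tested members higher, with 1 higher and 1 lower at an unadjusted p under 0.05. Gprc5b, an orphan receptor gene, differed by 0.26 and Gabbr2, a GABA-B receptor subunit, by -0.20, while Gabbr1, its partner subunit, differed by 0.013, a sign that flipped under median centring and quantile normalization.

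**Figure D5:**
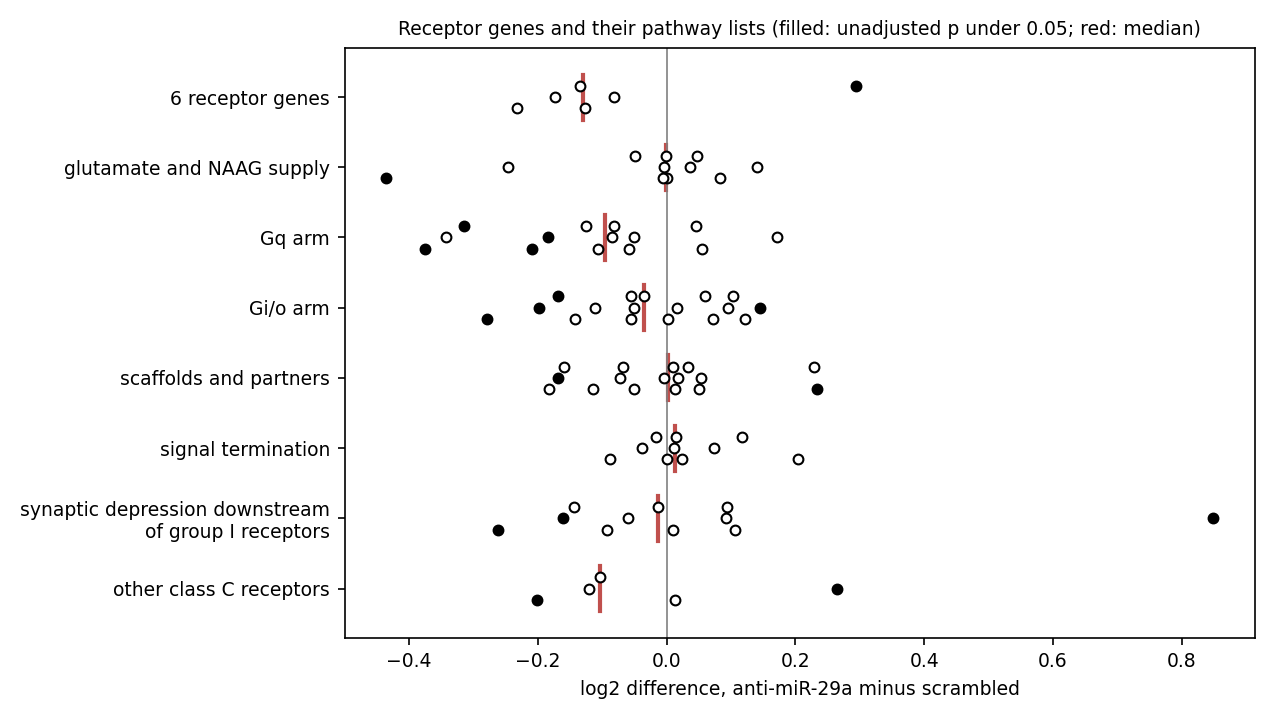
Log2 difference, anti-miR-29a minus scrambled, of the 6 receptor genes (top) and of each tested gene in the 7 pathway lists, filled where the unadjusted p is under 0.05, with the list median in red. The Gq arm has 11 of 14 genes below 0, and Grm2 is the one filled point among the receptors.

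The genes whose log2 values over the 8 samples were most like each receptor's were sought among 8300 other rows with a mean of at least 5 FPKM. The Pearson correlation ranks likeness here and is a description over 8 samples that share the group difference. Taking the highest of 8300 values over so few samples yields high correlations also among unrelated genes, so they are no evidence of shared regulation. For Grm2 these were Trap1 (0.96), Cxx1c (0.94) and Usmg5 (0.94). For Grm3 they were Pcdh10 (0.98), Fbxo34 (0.98) and Serinc4 (0.98), and for Grm5 Nedd4l (0.97), St8sia1 (0.97) and Sgip1 (0.95). Grm7 was most like Tlk2 (0.95), Lst1 (0.94) and Nup85 (0.93), and Grm8 most like Exoc6b (0.95), Tomm34 (0.94) and Cntn4 (0.94). Grm4 was most like Calb2 (0.99), a member of the cerebellar list, Mzt2 (0.96) and Gm9866 (0.94). The Calb2 value was 0.94 and the Mzt2 value 0.89 without scrambled replicate 3.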

How the data were processed

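The deposited table holds FPKM computed by the authors, 1 column per sample. CASAVA 1.8.2, Bowtie and Cuffnorm with mm10 are named per the submitters' processing notes; their order, the annotation and any filters are not stated there. The library kit, per the labels' protocols, does not mark strand. Read totals are unknown; whole reads could not be recovered from the spacing of low values (26.9% to 36.3% of ratios between samples lay within 0.02, on the log2 scale, of a ratio of whole numbers up to 4). Rows with a mean of at least 0.5 FPKM were tested as log2(FPKM + 0.1) with limma 3.58.1 (R 4.3.3), group as the term, variance trend, two-sided, Benjamini-Hochberg over 13912 rows, threshold 0.05. The pseudocount makes log2 differences of low genes too small. Exact permutation tests used the same log2 values. The fit was tested on simulated data. The length and GC trend was a loess surface of span 0.5 per sample on the longest GENCODE M21 transcript of at least 200 nt; 99.3% of tested symbols matched. Exons of Grm2 and Grm7 each overlap an antisense gene and those of Grm8 a microRNA gene on the same strand, and their reads cannot be told apart.

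Members and lists were chosen with earlier results of these data known, and the cerebellar list after Grm4 was seen. Named genes are the members, up to 4 genes of smallest p per pathway list, markers of highest level and the 3 genes most like each member. Gad1, Pvalb and Slc1a3 fall outside that rule, since other markers in their lists had higher levels. Pcp2 and Gabra6 were chosen after their values were seen. Alternatives were leaving out each sample, trend removal, a replicate block, robust empirical Bayes, sample weights, median centring, quantile normalization, pseudocounts of 0.01 and 1, and filters of none or 5 FPKM. Some list members are not reported here.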

Additional observations from a re-analysis of the deposited data

Results flagged for a closer look

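In a group of 4, a sample was singled out where its gap to the nearest other sample divided by the group's range exceeded Dixon's 95% critical value. Among 68 groups of values, 6 were singled out, where chance gives about 1 in 20. Grm4 was singled out in both groups: scrambled replicate 3 read 14.6 FPKM against 5.77 to 7.08 in the other controls, and anti-miR-29a replicate 3 read 5.69 FPKM against 7.42 to 7.72 in the other treated samples. Grm5 in anti-miR-29a replicate 1 read 10.9 FPKM against 9.28 to 9.51 in the others of its group. Gng3 in scrambled replicate 1 read 180.9 FPKM against 195.8 to 197.9. Gnai1 in anti-miR-29a replicate 2 read 25.8 FPKM against 28.3 to 28.6. Gpr158, an orphan class C receptor gene, read 20.3 FPKM in anti-miR-29a replicate 1 against 22.3 to 22.7.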

How the results depend on the processing

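Over the 18 alternatives the receptor genes gave 107 values, of which 0 passed the threshold and 105 kept their sign. The smallest adjusted p was 0.267, for Grm2. Exceptions in sign were Grm4 without scrambled replicate 3 (0.18) and Grm7 without anti-miR-29a replicate 1 (0.017). Grm8 has no value under a mean of at least 5 FPKM. Leaving out 1 sample gave 0.21 to 0.34 for Grm2, -0.22 to -0.0058 for Grm3, -0.26 to 0.18 for Grm4, -0.24 to -0.11 for Grm5, -0.15 to 0.017 for Grm7 and -0.40 to -0.13 for Grm8. Among pathway genes, signs turned for Glul under quantile normalization (-0.032), Rgs7 without scrambled replicate 2 (0.046, in a range of -0.096 to 0.046 with 1 sample left out) and Gabbr1 under median centring (-0.016) and quantile normalization (-0.030). The cause was not tested. Of all genes 2 passed, and 0 with the trend removed, 1 with a mean of at least 5 FPKM, 1 without a filter, 10 with robust empirical Bayes and 1 to 4 with 1 sample left out (1 without anti-miR-29a replicate 1 or 4, and 4 without replicate 3). With the trend removed, 626 genes were higher and 522 lower at an unadjusted p under 0.05 (limma). With the replicate number as a block 0 genes passed (1044 higher and 432 lower at an unadjusted p under 0.05, limma), and the Grm2 difference was 0.29 (adjusted p = 0.347, in a range of 0.267 to 0.638 over its alternatives). The deviations of same-numbered samples correlated at -0.11 to 0.014. Whether the numbers pair the samples cannot be told from this, since no known pair was at hand for comparison.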
